A study of Chlorocebus sabaeus with 18 samples.

Results

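The events described here are the 758 splicing events that the authors' deposited EventPointer tables type as alternative 5′ splice site, beside 5553 events of other types, and make up 12% of the total. They were chosen by that event type alone and lie in 693 genes, of which 57 hold 2 or more and none more than 3. An event's position is written as its span on the human assembly GRCh38, from the last base of the flanking exon at the lower coordinate to the first base of the flanking exon at the higher coordinate. Spans ran from 74 to 119424 bases, with a median of 1347.5.

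The RNA came from COS-7 cells, which descend from kidney of an African green monkey. The 18 samples form 6 groups of 3. Cells carried 60 CGG repeats in the untranslated leader of FMR1 together with raised TRA2A (CGG_TRA), the same repeats together with knockdown of TRA2A (CGG_siTRA), or the repeats alone (CGG). Other cells overexpressed TRA2A without the repeats (GFP_TRA), had TRA2A knocked down without the repeats (siTRA), or were controls (CTL). The labels describe neither an empty vector nor a control siRNA, so a treatment and the transfection that delivered it cannot be told apart. Whether replicates came from separate cultures is not stated either, and p-values reflect only the spread among these samples, which may be technical.

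Counts covered 15 libraries of the 5 groups other than CGG_TRA, with 121142115 to 203957869 counts over exon bins per library. An exon bin is a piece of exon delimited by the annotated boundaries of all transcripts of a gene. A read that covers several bins is counted in each. CGG_TRA entered only through the event tables, which hold no values per sample. Libraries of a group are lettered a, b and c here. The files pair no gene with a name, so events are named by position. A single gene, at chr7:23504780-23532041, was 2-fold or more above CTL in GFP_TRA and 2-fold or more down in siTRA vs CTL and CGG_siTRA vs CGG. It was found by that pattern, which makes it a limited check of the labelled manipulation of TRA2A. Its normalised count stood at 4020 to 4410 in CGG_siTRA, 15700 to 17000 in CGG, 187000 to 222000 in GFP_TRA, 3120 to 4920 in siTRA and 16900 to 17200 in CTL.

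At a 5′ splice site, the donor, the spliceosome cuts the downstream end of an exon from the intron. At a 3′ splice site, the acceptor, the intron is joined to the upstream end of the next exon. Where an exon has a choice of 2 sites at the same end, the mature RNA gains or loses the segment between them. TRA2A is an SR-like protein that binds exonic purine-rich elements and promotes the use of nearby splice sites. CGG repeat RNA is known to gather RNA-binding proteins in cells of patients with the tremor and ataxia syndrome FXTAS.

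On the plus strand, the event type did not match the splice site that the bins show in most members with a bin at 1 end alone. A segment that can be gained or lost has to abut one end of the span, and the exon bins show which. Among the 252 members on the minus strand, a bin abutted the higher-coordinate end alone in 132, the lower-coordinate end alone in 6, both ends in 75 and neither in 39. Among the 505 members on the plus strand, these counts were 267, 26, 131 and 81. One further member had no bins. Where a bin abutted only 1 end, it was thus mostly the higher-coordinate end on both strands, which is the donor side of an exon on the minus strand and the acceptor side on the plus strand. Events typed alternative 3′ splice site mirrored this, with the lower-coordinate end alone in 268 of 486 on the minus strand and in 123 of 289 on the plus strand. Segments at the higher-coordinate end are therefore called donor segments on the minus strand and acceptor segments on the plus strand. For the members with a bin at the lower-coordinate end alone or at neither end, the bins do not show that side.

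In 605 members, 207 on the minus strand and 398 on the plus strand, the segment could be matched to a bin at the higher-coordinate end, with the flanking exon's adjoining bin as its core. In the other 153 it could not, and 103 of these had no bin inside the span. The segment length is that of this 1 bin. It was a single piece in 245 of the 398 and 115 of the 207. In the others further bins adjoined it, so the alternative stretch may be longer. Segment lengths differed between the strands. On the plus strand 161 of 398 segments (40.5%) were 3 bases long, against 2 of 207 (1.0%) on the minus strand, and the median length was 8 bases on the plus strand and 30 on the minus strand. Acceptors that repeat their short consensus in tandem, so that exons differ by a single codon, are a well-known class of alternative splicing in mammals. Segments of 4 bases made up 2.01% on the plus strand and 4.35% on the minus strand. A length divisible by 3 was found for 71.1% of plus-strand and 57.0% of minus-strand segments. Such a length keeps the reading frame where the exon is coding and the bin is the whole alternative stretch. With the segments of 3 bases set aside, the shares were 51.5% of 237 and 56.6% of 205.

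**Figure D1:**
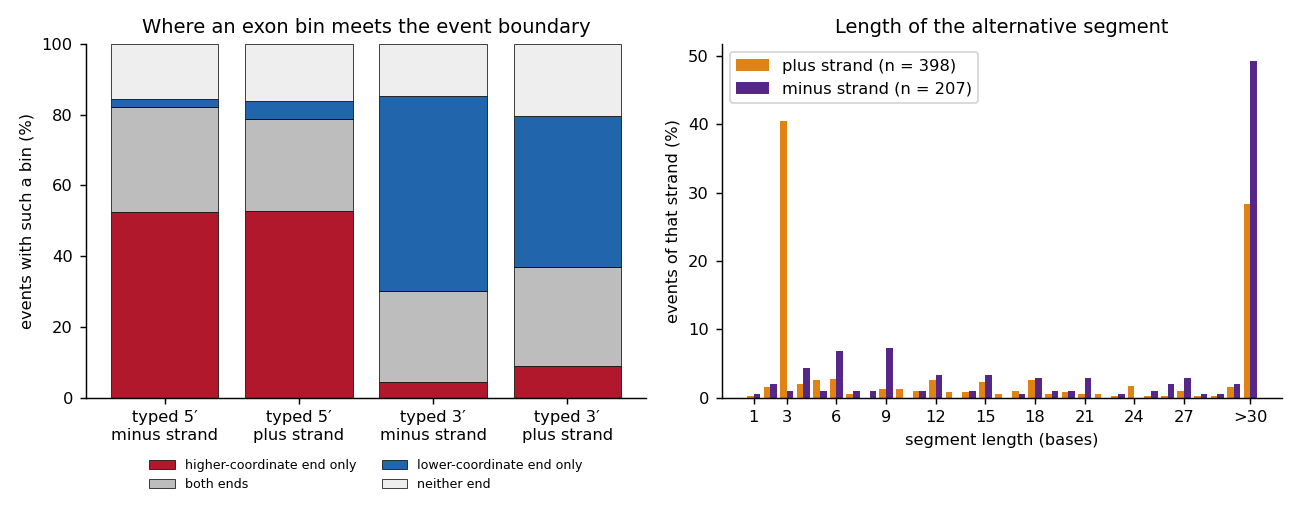
Left, the percent of events of each type and strand in which an exon bin abuts the higher-coordinate end of the span, the lower-coordinate end, both or neither. Right, the length of the segment's bin in bases, as a percent of the 398 plus-strand and 207 minus-strand members that have one. On the plus strand 3 bases is the commonest single length with 40.5%, and lengths over 30 bases share the last pair of bars.

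Delta PSI is the change in percent spliced in, given by the authors as a fraction, and the tables do not state its direction. Here it was taken as first-named minus second-named group, positive where the longer form gained. Where the authors' deposited tables gave an absolute Delta PSI of 0.05 or more, the segment-to-core ratio of the counts had the same sign in 43 of 44 members for CGG vs CTL, 47 of 49 for GFP_TRA vs CTL and 57 of 58 for CGG_siTRA vs siTRA. These are the same libraries, so the agreement checks the reading of the direction and is no second measurement. The z score in the authors' deposited tables ran the opposite way in every member with an absolute Delta PSI of 0.05 or more, from 49 of 49 to 64 of 64 per comparison. Members with bins at both ends bear on which end varies. At an absolute Delta PSI of 0.02 or more in the authors' deposited table for CGG vs CTL, the bin at the higher-coordinate end had its sign in 33 of 36 members, and the bin at the lower-coordinate end in 16 of 36. In the same order, the authors' deposited tables gave 35 and 21 of 39 in GFP_TRA vs CTL, and 35 and 24 of 39 in CGG_siTRA vs siTRA. At 0.05 or more in CGG_siTRA vs siTRA the ends had the sign in 7 and 5 of 7, so the contrast was weaker there.

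**Figure D2:**
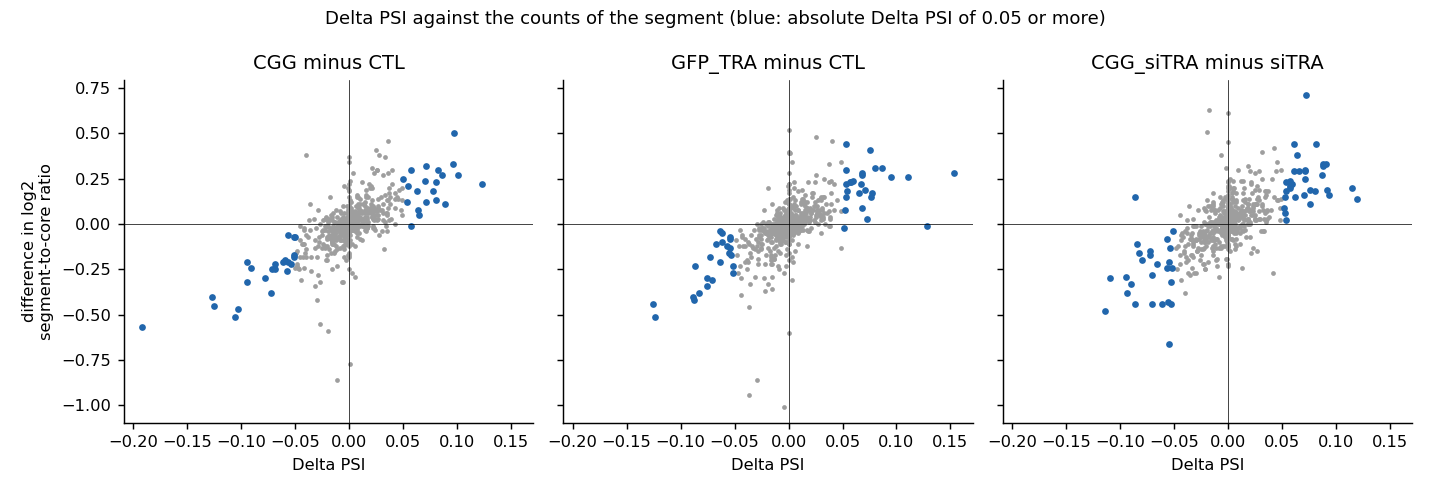
Delta PSI of each member in the authors' deposited tables (horizontal) against the difference in the log2 ratio of segment count to core count (vertical), for the 3 comparisons with both. Members with an absolute Delta PSI of 0.05 or more are blue and lie almost all at the lower left and upper right, 43 of 44 in CGG minus CTL.

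Most changes in the use of these splice sites were small. In the authors' deposited tables the middle 90% of the members' Delta PSI values lay from -0.043 to 0.039 in CGG vs CTL, from -0.043 to 0.043 in GFP_TRA vs CTL, from -0.044 to 0.046 in CGG_siTRA vs siTRA, from -0.043 to 0.038 in CGG_TRA vs CGG and from -0.047 to 0.044 in CGG_TRA vs CGG_siTRA. An absolute Delta PSI of 0.05 or more was found for 50, 62, 64, 49 and 60 members in that order of the authors' deposited tables, or 6.6%, 8.18%, 8.44%, 6.46% and 7.92%. The same shares over all events of the authors' deposited tables were 10.3%, 11.6%, 8.41%, 8.19% and 10.9%. Values above and below 0 were close to even, with 337 above and 338 below in CGG vs CTL in the authors' deposited table, and 83 members had a Delta PSI of 0 in all 5.

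A larger share of minus-strand than of plus-strand members reached this size. In the authors' deposited table for CGG vs CTL, 9.13% of the 252 minus-strand members and 5.35% of the 505 plus-strand members reached an absolute Delta PSI of 0.05. In the authors' deposited table for CGG_siTRA vs siTRA the shares were 13.5% and 5.94%. The same order held in the authors' deposited tables for the other 3 comparisons, which share samples with each other and with these. Members of the same table are not replicates, so no test is given. In the counts the ratio of segment to core also varied more within groups on the minus strand, with a median SD on the log2 scale of 0.117 against 0.088 for segments of 4 to 30 bases and 0.123 against 0.091 for longer ones. The median segment count was lower on the minus strand in these classes, 122 against 296 and 238 against 312, and its part in the difference was not tested.

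**Figure D3:**
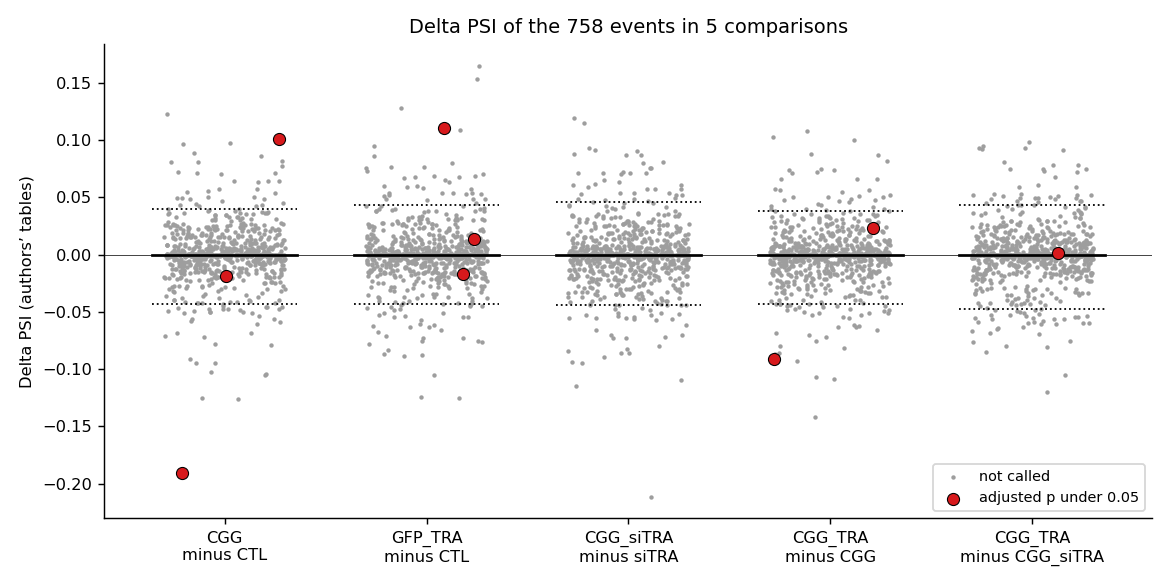
Delta PSI of the 758 members in each of the authors' 5 deposited tables, first-named group minus second, with the median (solid line) and the 5th and 95th percentiles (dotted lines). Red points mark the 9 calls at an adjusted p under 0.05, which range from -0.191 to 0.111.

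Over the 5 tables, 7 members made 9 calls at an adjusted p under 0.05, with the authors' p-values adjusted by the Benjamini-Hochberg method over all events of a table. In CGG vs CTL 3 members were called, against a background of 1.33% of all events in the authors' deposited table. In GFP_TRA vs CTL 3 were called, against 1.22% of all events in the authors' deposited table. In CGG_TRA vs CGG 2 were called (background 0.412%), in CGG_TRA vs CGG_siTRA 1 (background 0.713%), and in CGG_siTRA vs siTRA 0 (background 0.0475%), all in the authors' deposited tables. At an unadjusted p under 0.05, the authors' deposited tables gave 24 members in CGG vs CTL (3.17%, background 7.68%), 31 in GFP_TRA vs CTL (4.09%, background 8.18%), 50 in CGG_siTRA vs siTRA (6.6%, background 6.31%), 38 in CGG_TRA vs CGG (5.01%, background 8.13%) and 56 in CGG_TRA vs CGG_siTRA (7.39%, background 8.87%). CGG vs CTL and GFP_TRA vs CTL share the CTL libraries, and 2 members were called in both.

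The larger of the changes called in both tables was a gain of a 36-base donor segment. The event at chr15:50300902-50301257 on the minus strand (ENSG00000104064.16) has its segment at bases 50301221 to 50301256, an exonic bin of the annotation. The segment-to-core ratio was 0.514, 0.51 and 0.527 in CGG, 0.53, 0.532 and 0.481 in GFP_TRA, and 0.436, 0.427 and 0.424 in CTL. All 6 treated libraries lay above all 3 CTL libraries. Delta PSI in the authors' deposited tables was 0.101 in CGG vs CTL (adjusted p = 0.0096) and 0.111 in GFP_TRA vs CTL (adjusted p = 0.00201). The ratio was 0.493 ± 0.0316 in CGG_siTRA and 0.51 ± 0.0431 in siTRA (SD, n = 3), so the knockdown groups lay above CTL too. In the limma test of the log2 ratio, the differences of 0.27 (SE 0.065, adjusted p = 0.113) in CGG vs CTL and 0.26 (SE 0.065, adjusted p = 0.153) in GFP_TRA vs CTL did not pass. Fitted on the groups compared alone, limma gave adjusted p-values of 0.00762 and 0.0489 for these.

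The other event called in both had small values. At chr19:40233951-40235101 on the minus strand, with a 56-base segment, Delta PSI in the authors' deposited tables was -0.0189 in CGG vs CTL (adjusted p = 0.00377) and -0.0167 in GFP_TRA vs CTL (adjusted p = 0.0019). The segment-to-core ratio was 1.07 ± 0.0232 in CGG, 1.07 ± 0.0347 in GFP_TRA and 1.11 ± 0.0325 in CTL (SD, n = 3), and the libraries overlapped. The bin test on this segment was not passed in either comparison (edgeR, adjusted p = 1.0). The gene around this event was itself much lower after knockdown. Its summed normalised count was 14020 in siTRA, against 35270 in CTL (log2 change -1.27, SE 0.09, adjusted p = 4.68e-09 by edgeR), and 16020 in CGG_siTRA, against 30000 in CGG (log2 change -0.80, SE 0.09, adjusted p = 4.46e-06, edgeR). In bulk RNA, fewer cells that express a gene and less RNA per cell cannot be told apart.

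A 51-base donor segment gave the largest called Delta PSI. At chr9:34402807-34405916 on the minus strand it was -0.191 in CGG vs CTL in the authors' deposited table (adjusted p = 0.0388). The segment-to-core ratio was 0.41, 0.516 and 0.471 in CGG and 0.606, 0.63 and 0.881 in CTL. The CGG libraries all lay below the CTL libraries, and the CTL libraries were far apart. The segment held only 35.39 ± 5.24 normalised counts in CGG and 47.03 ± 3.91 in CTL (SD, n = 3), and the log2 ratio difference of -0.57 (SE 0.217, adjusted p = 0.553, limma) did not pass.

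The remaining calls had no counts for CGG_TRA or no segment bin to set beside them. At chr7:102195603-102196940 on the plus strand, with a 306-base segment, Delta PSI in the authors' deposited table was -0.0908 in CGG_TRA vs CGG (adjusted p = 0.0171). At chr5:175492267-175509061 on the plus strand, with a 29-base segment, it was 0.0236 in the authors' deposited table for the same comparison (adjusted p = 0.0392). The CGG libraries, the lower side of that difference, had ratios of 0.522, 0.521 and 0.54 at this event, against 0.573, 0.572 and 0.589 in CTL, where limma gave a log2 ratio difference of -0.13 (SE 0.065, adjusted p = 0.777) for CGG vs CTL. Events without a segment bin were called at chr16:14633018-14644334 in GFP_TRA vs CTL (Delta PSI 0.0140, adjusted p = 0.0369) and at chr19:47155213-47169821 in CGG_TRA vs CGG_siTRA (Delta PSI 0.00119, adjusted p = 0.0209), both in the authors' deposited tables.

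Larger values than most of the called ones did not pass the threshold. A 39-base acceptor segment at chr2:48451076-48454595 on the plus strand had a Delta PSI of -0.125 in CGG vs CTL (adjusted p = 0.134) and -0.124 in GFP_TRA vs CTL (adjusted p = 0.0604) in the authors' deposited tables. Its ratio was 0.193 ± 0.0291 in CGG, 0.185 ± 0.0139 in GFP_TRA and 0.264 ± 0.0181 in CTL (SD, n = 3), and 0.192 ± 0.0482 in CGG_siTRA and 0.193 ± 0.0361 in siTRA (SD, n = 3). Every treated library lay below every CTL library there. The lowest Delta PSI of all, -0.212 in CGG_siTRA vs siTRA in the authors' deposited table, was at chr2:70289372-70291570 on the minus strand (adjusted p = 0.229), where no segment bin was found. At chr9:106930689-106932446 on the plus strand, with a 180-base segment, Delta PSI was 0.0883 in CGG_TRA vs CGG (adjusted p = 0.276) and 0.0923 in CGG_TRA vs CGG_siTRA (adjusted p = 0.182) in the authors' deposited tables, which share CGG_TRA.

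The signs of Delta PSI were compared between tables that share no library. Of 119 members with an absolute Delta PSI of 0.02 or more in the authors' deposited tables for CGG_siTRA vs siTRA as well as for CGG vs CTL, 59 (49.6%) had the same sign, and 47.6% of 1011 events of all types did. For the raising of TRA2A, GFP_TRA vs CTL and CGG_TRA vs CGG had the same sign in 57 of 113 members (50.4%) in the authors' deposited tables, against 57.9% of 1132 events of all types. GFP_TRA vs CTL and CGG_TRA vs CGG_siTRA had the same sign in 58 of 109 members (53.2%) in the authors' deposited tables, against 65.3% of 1215 events.

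The counts also cover knockdown against CTL, for which no event table was used here. The log2 ratio of segment to core was tested with limma in 604 members, with p-values adjusted over 1202 pairs that include those of events typed alternative 3′ splice site. This test was added after the data were seen. It called 4 members in siTRA vs CTL (background 0.499% of pairs), 1 in CGG vs CTL (background 0.416%), 1 in GFP_TRA vs CTL (background 0.166%), and 0 in CGG_siTRA vs siTRA (background 0.0%), in CGG_siTRA vs CGG (background 0.0%) and in the interaction (background 0.0832%). At an unadjusted p under 0.05 it gave 88, 37, 46, 52, 59 and 43 of the 604 members in the same order, against backgrounds of 14.6%, 6.82%, 7.15%, 9.9%, 9.98% and 8.49% of pairs.

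The ratio of a 35-base acceptor segment to its core rose in siTRA vs CTL. The event at chr15:64136932-64138042 on the plus strand (ENSG00000028528.14) has its segment at bases 64138007 to 64138041. The segment-to-core ratio was 0.778, 0.723 and 0.92 in siTRA, against 0.43, 0.488 and 0.471 in CTL. It was 0.617, 0.676 and 0.638 in CGG_siTRA, against 0.435, 0.444 and 0.452 in CGG. In GFP_TRA it was 0.462, 0.342 and 0.433. Every library of the knockdown groups lay above every library of the other 3 groups. The log2 ratio difference was 0.79 in siTRA vs CTL (SE 0.115, adjusted p = 0.00146, limma), against 0.53 (SE 0.115, adjusted p = 0.0747, limma) in CGG_siTRA vs CGG, and the first passed in 11 of 11 alternatives (adjusted p 0.000904 to 0.0481). The segment itself held 143.6 ± 24.0 normalised counts in siTRA and 104.1 ± 16.3 in CTL, and its core 180.3 ± 43.4 in siTRA and 223.9 ± 21.3 in CTL (SD, n = 3). In the cells with repeats the segment held 94.2 ± 3.73 in CGG_siTRA and 106.0 ± 17.3 in CGG, and its core 146.4 ± 3.43 in CGG_siTRA and 238.5 ± 35.8 in CGG (SD, n = 3), so the segment's own count was not higher with knockdown there. The bin test against the rest of the gene gave the segment a log2 difference of 0.70 with an SE of 0.14 (edgeR, adjusted p = 0.0314). That call was lost without CTL library a, b or c, without siTRA library b or c, and in the fit of these groups alone, with adjusted p-values of 0.0702 to 0.441. In the authors' deposited table for CGG_TRA vs CGG_siTRA, where CGG_siTRA is the knockdown group, Delta PSI was -0.12 (adjusted p = 1.0).

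A 3-base acceptor segment was less used in siTRA than in CTL. At chr12:56158404-56158684 on the plus strand (ENSG00000196465.10), with the segment at bases 56158681 to 56158683, the ratio was 0.0551, 0.0555 and 0.0507 in siTRA, against 0.0639, 0.0643 and 0.0659 in CTL, with 1747 ± 164 normalised counts on the segment in siTRA and 2028 ± 108 in CTL (SD, n = 3). The log2 ratio difference was -0.27 (SE 0.038, adjusted p = 0.00146, limma), and it passed in 11 of 11 alternatives. The ratio was 0.0561 ± 0.000551 in CGG_siTRA, 0.0578 ± 0.00145 in CGG and 0.058 ± 0.00309 in GFP_TRA (SD, n = 3), so all treated libraries lay below all CTL libraries. Delta PSI was 0 in all 5 of the authors' deposited tables for this event.

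A 48-base donor segment was less used in CGG and GFP_TRA than in CTL. At chr1:224424654-224431525 on the minus strand (ENSG00000162923.14), the ratio was 0.342, 0.374 and 0.331 in CGG and 0.338, 0.331 and 0.348 in GFP_TRA, against 0.463, 0.473 and 0.446 in CTL. The groups did not overlap with CTL. The log2 ratio differences were -0.40 (SE 0.07, adjusted p = 0.0246, limma) in CGG vs CTL and -0.44 (SE 0.07, adjusted p = 0.0181, limma) in GFP_TRA vs CTL, with Delta PSI values of -0.126 and -0.125 in the authors' deposited tables (adjusted p = 0.762 and 1.0). The ratio lay between these in siTRA, at 0.404 ± 0.0248, and in CGG_siTRA, at 0.384 ± 0.0164 (SD, n = 3). Every library of these knockdown groups also lay below every CTL library. The GFP_TRA call was lost without any 1 of the 6 libraries (adjusted p up to 0.117), and the CGG call without 5 of the 6 (adjusted p up to 0.164), all but CGG library b.

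A further 2 ratios were called in siTRA vs CTL. A 232-base acceptor segment at chr14:67269783-67279250 had a ratio of 0.706 ± 0.0645 in siTRA and 0.554 ± 0.0224 in CTL (SD, n = 3), a log2 difference of 0.35 (SE 0.069, adjusted p = 0.0328, limma). An 81-base donor segment at chr15:58893364-58893902 had 1.06 ± 0.0462 in siTRA and 1.21 ± 0.0382 in CTL (SD, n = 3), a log2 difference of -0.18 (SE 0.038, adjusted p = 0.041, limma). Each passed in 1 of the 6 fits that left out a library, with adjusted p-values up to 0.187 and 0.207 over the alternatives. In the cells with repeats, the first ratio was 0.595 ± 0.0429 in CGG_siTRA and 0.602 ± 0.0339 in CGG (SD, n = 3). The second was 1.16 ± 0.0198 in CGG_siTRA and 1.16 ± 0.0216 in CGG (SD, n = 3), so neither change was seen there.

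**Figure D4:**
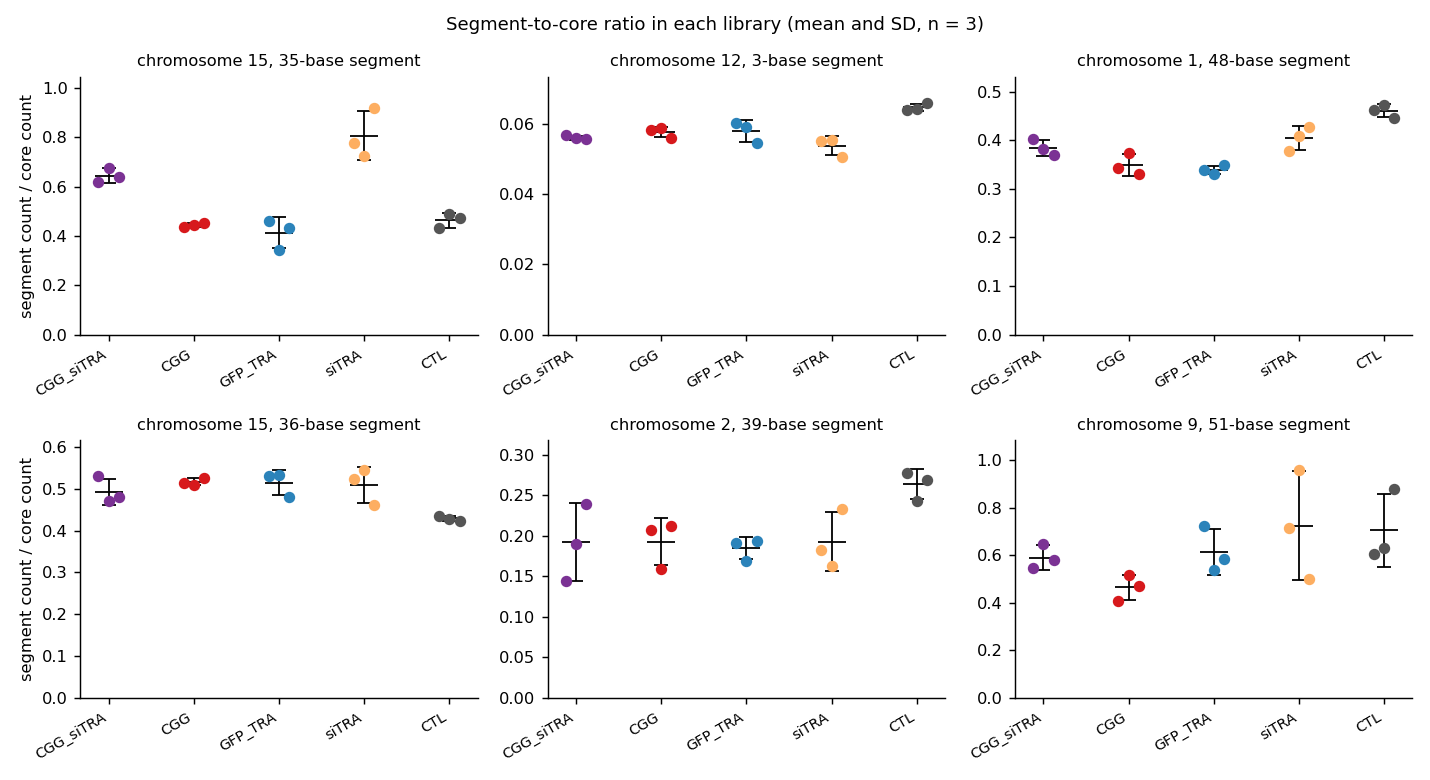
The count of the segment divided by the count of its core in each library, by group, for 6 members; points are libraries and bars the mean and SD (n = 3). The knockdown groups stand apart at the 35-base segment on chromosome 15, and all treated groups lie below CTL at the 3-base segment on chromosome 12 and the 39-base segment on chromosome 2.

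In all, 1475 bins lay inside the 758 spans, 605 of them segments. Of these bins 1190, among them 604 segments, passed the minimum of 10 normalised counts in 3 libraries. Their use relative to the rest of the gene was tested with edgeR over 265003 bins. In siTRA vs CTL 28 were called, 24 higher and 4 lower (2.35% of those tested, background 0.477%). In GFP_TRA vs CTL 17 were called, 1 higher and 16 lower (1.43%, background 0.357%). In CGG vs CTL 9 were called, 4 higher and 5 lower (0.756%, background 0.237%). In CGG_siTRA vs CGG 3 were called, all higher (background 0.134%), in CGG_siTRA vs siTRA 0 (background 0.0336%), and in the interaction 5 (background 0.0936%). In CGG_siTRA vs siTRA 79 bins had an unadjusted p under 0.05 by edgeR (background 4.97%), and limma's test called 1 (background 0.0808%). Of the 604 segments tested, only 3 were called in siTRA vs CTL, 1 in GFP_TRA vs CTL and 0 in CGG vs CTL. The called bins were thus mostly bins of the spans other than segments. The 28 bins lay in 16 spans, the 17 in 8 and the 9 in 7, so called bins often shared a span and its reads. These shares are over bins that passed the minimum. Single libraries decided much of these counts. In CGG vs CTL 3 or 4 bins were called without any 1 library. In GFP_TRA vs CTL 3 were called without GFP_TRA library b, 9 without GFP_TRA library a, and 5 each without CTL library a or c. In siTRA vs CTL 14, 15 and 13 were called without CTL library a, b or c. In CGG_siTRA vs CGG 8 were called without CGG_siTRA library c, 2 without CGG library c and 0 without any other. Of the called bins, 1 of 9, 1 of 17 and 9 of 28 passed in every fit that left out a library in CGG vs CTL, GFP_TRA vs CTL and siTRA vs CTL. The authors' deposited DEXSeq tables gave more calls among these bins, 93 in CGG vs CTL (7.19%, against 2.0% of all bins), 63 in GFP_TRA vs CTL (4.65%, against 1.32%), 67 in siTRA vs CTL (5.28%, against 1.83%) and 54 in CGG_siTRA vs CGG (4.58%, against 3.34%).

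The bins of lowest adjusted p rose in siTRA, within the span chr5:149496860-149505483 on the minus strand. At bases 149501223 to 149504670 the normalised count was 493, 643 and 418 in siTRA, 419, 405 and 486 in CGG, 329, 270 and 391 in GFP_TRA, 505, 478 and 306 in CGG_siTRA, and 246, 217 and 261 in CTL. Another bin of the span, at 149504846 to 149505446, had 217, 373 and 222 in siTRA, 201, 235 and 253 in CGG, 170, 176 and 199 in GFP_TRA, 252, 230 and 156 in CGG_siTRA, and 118, 95.8 and 115 in CTL. All libraries of these 4 treated groups lay above all CTL libraries at both bins. The log2 changes relative to the gene were 1.14 (SE 0.16, adjusted p = 6.62e-09, edgeR) and 1.34 (SE 0.19, adjusted p = 3.29e-08, edgeR) for siTRA vs CTL. In CGG vs CTL they were 0.75 (adjusted p = 0.0028, edgeR) and 0.97 (adjusted p = 0.00104, edgeR), and in some fits that left out a library these were lost (adjusted p up to 0.155). The gene's summed count was 83070 in siTRA, 92720 in CGG and 86000 in CTL, and these bins are a small part of it.

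A run of neighbouring bins rose in siTRA in the span chr16:2264760-2267617 on the minus strand. Of its 17 bins, 10 between 2266524 and 2267574 were called, with log2 changes of 0.96 to 1.24 (adjusted p 0.000565 to 0.0228, edgeR). Their summed count was 760.8, 1037 and 715.6 in siTRA, against 455.2, 518.8 and 447.9 in CTL. The groups did not overlap, but the bins summed are those called in this comparison, so the sum is no separate support. In CGG_siTRA the sums were 715.1, 753.1 and 447.4, and in CGG 691.5, 809.5 and 674.6, and these libraries overlapped. Every CGG sum also lay above every CTL sum. The GFP_TRA sums, 573.4, 406.8 and 475.6, overlapped with CTL. The gene's own summed count fell, from 40030 in CTL to 32060 in siTRA (log2 change -0.26, SE 0.07, adjusted p = 0.00603, edgeR), and the bin changes are relative to the gene. Short neighbouring bins are covered by the same reads, so the 10 calls are not 10 measurements.

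A bin of the span chr5:112864732-112867404 rose in all 3 comparisons with CTL, which share its libraries. At bases 112864733 to 112864919 the count averaged 87.9 in CGG, 82.4 in GFP_TRA, 95.6 in siTRA and 46.3 in CTL. The log2 changes were 0.96 (adjusted p = 0.014), 0.89 (adjusted p = 0.032) and 1.03 (adjusted p = 0.0028), by edgeR. The siTRA change passed in each fit that left out a library, and the others in 1 of 6 each (adjusted p up to 0.28 in CGG vs CTL and 0.639 in GFP_TRA vs CTL).

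Bins that fell in GFP_TRA gathered in spans on chromosomes 17 and 22. In chr17:27306882-27309100 on the plus strand, 5 of 7 bins fell, with log2 changes of -1.08 to -0.85 (adjusted p 2.27e-06 to 0.0293, edgeR). Among them was the 252-base bin taken as its acceptor segment. Another of the called bins directly adjoins it, so it may be only a piece of the alternative stretch. These calls passed in 1 to 6 of 6 fits that left out a library. The segment's call passed in 1 (adjusted p up to 0.523 over the alternatives). The event's Delta PSI in GFP_TRA vs CTL was -0.037 in the authors' deposited table (unadjusted p = 0.603). The summed count of the 5 bins was 551.0, 447.0 and 494.7 in GFP_TRA, against 1040, 947.3 and 1129 in CTL. It was 492.6, 412.2 and 507.2 in CGG, where 1 of the bins was called. The gene as a whole changed by -0.14 on the log2 scale in GFP_TRA vs CTL, which did not pass (SE 0.07, edgeR adjusted p = 0.162), and fell in CGG vs CTL with a log2 change of -0.48 (SE 0.07, edgeR adjusted p = 7.1e-05). In chr22:29288786-29291565 on the plus strand, 5 of 8 bins fell in GFP_TRA, with log2 changes of -1.07 to -0.79 (adjusted p 0.000859 to 0.0332, edgeR). These GFP_TRA calls passed in 0 to 5 of 6 fits that left out a library. The bins' sum was 630.9, 514.7 and 572.1 in GFP_TRA, against 1105, 882.3 and 1142 in CTL, while the gene's summed count was 86030 in GFP_TRA and 84870 in CTL. The sum of the 5 bins was 577.9, 576.4 and 704.7 in CGG, also below every CTL library, where the bin at 29291020 to 29291561 fell (log2 change -0.81, adjusted p = 0.00866, edgeR). That call passed in 2 of 6 fits that left out a library (adjusted p up to 0.25 over the alternatives). GFP_TRA did not overlap with CTL in either span, but the bins summed are those called in that comparison. In siTRA these sums spread widely, from 455.0 to 791.2 on chromosome 17 and from 543.8 to 1089 on chromosome 22. Every siTRA sum on chromosome 17 lay below every CTL sum. There the bin at 27307790 to 27307870 fell in siTRA vs CTL (log2 change -0.78, adjusted p = 0.0335, edgeR), a call that passed in 2 of 6 fits that left out a library. In CGG_siTRA the sums on chromosome 17 were 1002, 866.9 and 517.3, which overlapped with CTL.

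The bin at chr18:46089759-46089821, on the minus strand, fell in CGG, GFP_TRA and siTRA. Its normalised count was 15.4, 16.1 and 18.7 in CGG, 25.4, 26.5 and 24.7 in GFP_TRA, and 26.4, 19.5 and 12.7 in siTRA, against 59.0, 46.5 and 52.7 in CTL. The log2 changes were -1.70 (adjusted p = 0.00032), -1.16 (adjusted p = 0.0366) and -1.36 (adjusted p = 0.00682), by edgeR, in comparisons that share the CTL libraries. The CGG change passed in each of 6 fits that left out a library, the siTRA change in 3 (adjusted p up to 0.153 over the alternatives) and the GFP_TRA change in 0 (adjusted p up to 0.36). The gene's summed count was 409700 in CGG, 425600 in GFP_TRA, 376000 in siTRA and 391500 in CTL, and this bin is a very small part of it.

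**Figure D5:**
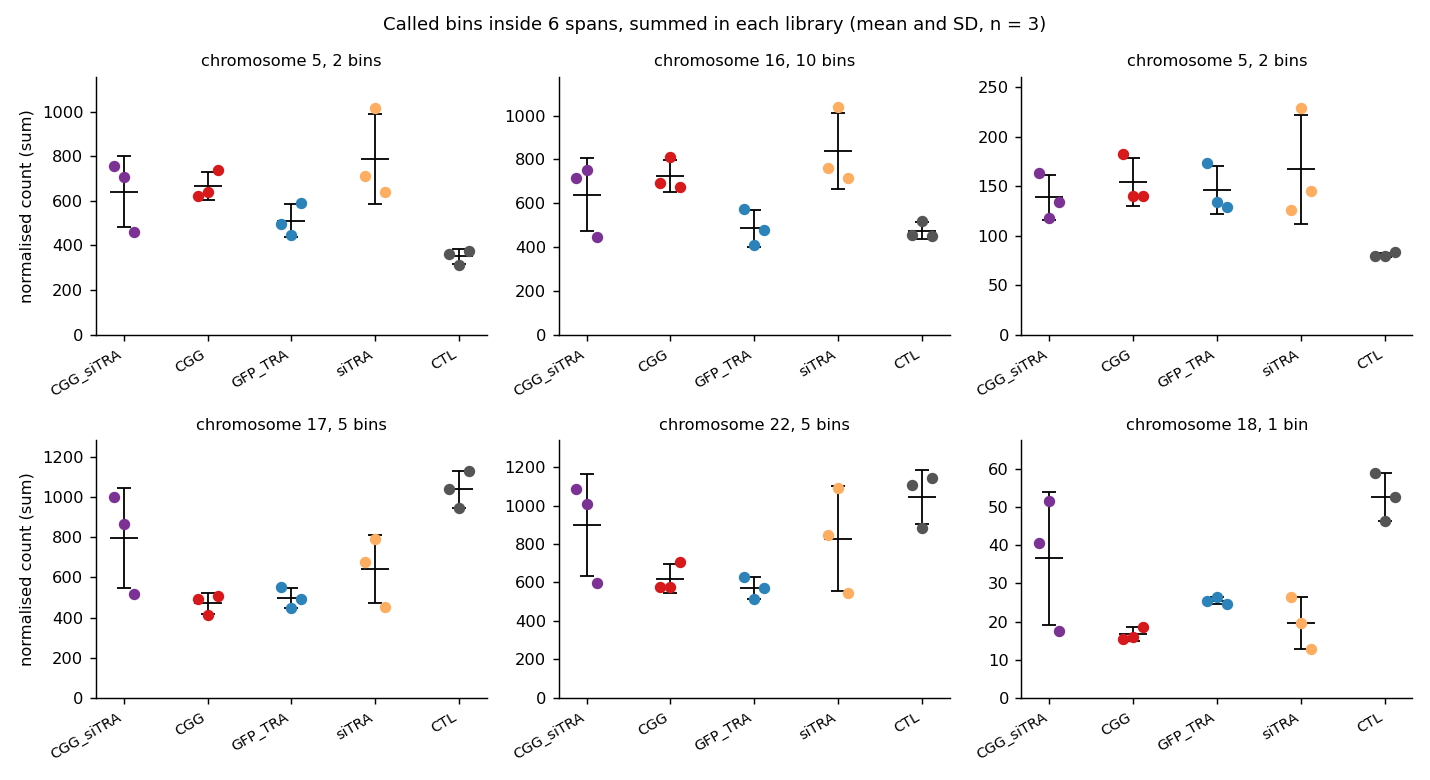
Normalised counts of the bins called in any comparison inside 6 member spans, summed in each library, by group; points are libraries and bars the mean and SD (n = 3). The upper row shows spans where siTRA averaged more than CTL, and the lower row spans where GFP_TRA averaged less.

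The genes that hold the members were tested on their summed counts, 688 in all. In CGG vs CTL 218 were called, 74 higher and 144 lower (31.7%, background 24.0%, edgeR). In GFP_TRA vs CTL 222 were called, 112 higher and 110 lower (32.3%, background 28.4%). In CGG_siTRA vs siTRA 0 were called by edgeR (background 0.0134%), 153 had an unadjusted p under 0.05 (background 18.8%), and DESeq2 called 32 (background 5.33%). In siTRA vs CTL 317 were called (46.1%, background 37.9%), and in CGG_siTRA vs CGG 86 (12.5%, background 10.1%), comparisons added after the data were seen. The median log2 changes of these genes were -0.043, 0.02, -0.012, -0.047 and 0.006 in this order, beside -0.001, -0.008, 0.006, -0.007 and 0.011 over all genes. The edgeR backgrounds are over all 14964 genes tested. Whether the members' genes have higher counts than those, and the part of this in the shares called, was not tested.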

How the data were processed

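Ribosomal RNA was depleted from total RNA, per the labels' protocols. The submitters' processing notes list cutadapt 1.14, STAR 2.5.2 and the human build GRCh38.p10. The cells are monkey, so transcripts that diverge from human may be undercounted. DESeq2 is listed there without a role. How overlapping genes and reads of similar copies were counted, and whether strand was used, is not given in the sources used here; 145 of the 758 members lie in genes counted as a group of overlapping genes.

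The authors deposited raw counts per exon bin in 6 DEXSeq tables, with a p-value, an adjusted p-value and a log2 fold change of bin use per the file headers, and normalised bin values, a signal scaled by 1 factor per library. Undoing that factor returned 100.0% of values to a whole number of reads, with a tolerance of 0.1. The authors' 5 deposited event tables give a p-value, a z score and Delta PSI per event, per the file headers, with no values per sample. Replicates of a group differed beyond sampling noise, and unequally between groups. Chi-square per degree of freedom for pairs of libraries was 11.1 to 18.4 in CGG, 25.5 to 42.0 in CTL and 32.5 to 77.3 in GFP_TRA. It was 40.5 to 168 in siTRA and 68.5 to 183 in CGG_siTRA. The fits of all 15 libraries used 1 spread per feature for all groups. The columns' library numbers could not be matched to replicates named in the titles.

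The authors' event p-values were adjusted by Benjamini-Hochberg over all events of a table. Bins were tested with edgeR 4.0.16 (diffSpliceDGE, TMM, group means of all 15 libraries) and genes with its quasi-likelihood test, in R 4.3.3, on features that reached 10 normalised counts in at least 3 libraries. The 265003 bins and 14964 genes were each tested together, and p-values adjusted over all of them. limma 3.58.1 tested log2 ratios of segment to core with a pseudocount of 1 where both reached 10; fold changes of low bins are understated on that scale. The interaction is the effect of the repeats with knockdown minus that without. Scripts were tested on simulated data. Alternatives were DESeq2 1.42.0 and its size factors, other minimum counts and pseudocounts, limma's diffSplice, fits of the compared groups alone and fits without each library.

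Events named are those of the 10 smallest p-values per table, since fewer than 5 were called in each, and those whose ratio was called. Bins named are from the 10 largest changes per comparison among called bins with a mean of 50 or more in a group and no overlap between groups, given by span. The members and these rules were chosen with earlier results of these data known. Of 693 member genes, 0 were paired with a name in the monkey RefSeq table, so planned lists of splicing factors and cell markers were not used. The CGG_TRA counts were not analysed here.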

Additional observations from a re-analysis of the deposited data

Results flagged for a closer look

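For 5 bins inside the spans, CGG_siTRA vs siTRA differed from CGG vs CTL, by edgeR's interaction test with adjusted p-values over all bins. The CTL and siTRA libraries are the bases of these contrasts, and 0.0936% of all bins were called. CTL enters only the contrast without knockdown. A difference of CTL from all treated groups thus cannot be told apart from a repeat effect that depends on knockdown. At chr18:46089759-46089821 the log2 interaction was 2.67 (SE 0.46, adjusted p = 7.56e-05, edgeR). The normalised count was 40.6, 51.6 and 17.5 in CGG_siTRA, against 26.4, 19.5 and 12.7 in siTRA, and 15.4, 16.1 and 18.7 in CGG, against 59.0, 46.5 and 52.7 in CTL. The effect of the repeats was 0.97 with knockdown (adjusted p = 0.478, edgeR) and -1.70 without it (adjusted p = 0.00032, edgeR). The interaction passed in each of 12 fits that left out a library. The gene's summed count was 353900 in CGG_siTRA, 376000 in siTRA, 409700 in CGG and 391500 in CTL, and this bin is a very small part of it.

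At chr17:27306883-27307743 the interaction was 1.15 (SE 0.24, adjusted p = 0.00571, edgeR), with an effect of 0.31 with knockdown (adjusted p = 1.0, edgeR) and -0.84 without it (adjusted p = 0.0017, edgeR). At chr5:149504846-149505446 it was -1.17 (SE 0.26, adjusted p = 0.0168, edgeR), with -0.21 with knockdown (adjusted p = 1.0, edgeR) and 0.97 without it (adjusted p = 0.00104, edgeR). At chrX:134425331-134425660 it was -0.98 (SE 0.19, adjusted p = 0.00975, edgeR), with -0.40 with knockdown (adjusted p = 0.651, edgeR) and 0.59 without it (adjusted p = 0.051, edgeR). At chrX:48575996-48576068 it was 1.23 (SE 0.30, adjusted p = 0.0481, edgeR), with 0.54 with knockdown (adjusted p = 0.697, edgeR) and -0.69 without it (adjusted p = 0.217, edgeR). The effect of the repeats with knockdown passed the test at 0 of the 5 bins, and that without knockdown at 3 of the 5. Of the 5, 1 passed in every fit that left out a library, the bin on chromosome 18. At all 5 bins GFP_TRA, which has no repeats, and siTRA differed from CTL in the same direction as CGG. On chromosome 18 the means were 16.7 in CGG, 25.5 in GFP_TRA and 19.5 in siTRA, against 52.7 in CTL. On chromosome 5 they were 230, 182 and 271, against 110. On chromosome 17 they were 132, 147 and 214, against 335.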

How the results depend on the processing

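No paired analysis was possible because the count columns carry no replicate numbers of the labels. The event tables hold no values per sample, so event calls have no fit without a library. The counts limit short or thinly covered segments most.

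Event calls depended on the rule applied to the authors' deposited tables. In the order CGG vs CTL, GFP_TRA vs CTL, CGG_siTRA vs siTRA, CGG_TRA vs CGG and CGG_TRA vs CGG_siTRA, an unadjusted p under 0.05 gave 24, 31, 50, 38 and 56 members, and an unadjusted p under 0.01 gave 11, 9, 15, 11 and 14. With an absolute Delta PSI of 0.1 or more added to the adjusted p, GFP_TRA vs CTL kept 1, CGG_TRA vs CGG 0 and CGG_TRA vs CGG_siTRA 0 in the authors' deposited tables. At an adjusted p under 0.01, CGG_TRA vs CGG and CGG_TRA vs CGG_siTRA had 0 each.

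Fitted on the compared groups alone, edgeR called 61 bins in CGG vs CTL, 37 in GFP_TRA vs CTL, 15 in siTRA vs CTL and 5 in CGG_siTRA vs CGG, and 387 member genes in CGG vs CTL, beside 1.21%, 0.804%, 0.232% and 0.238% of all bins and 41.8% of all genes in the same fits. The same change gave 18, 8, 2 and 1 ratio calls in CGG vs CTL, GFP_TRA vs CTL, siTRA vs CTL and CGG_siTRA vs CGG, beside 2.91%, 1.41%, 0.333% and 0.582% of all pairs. limma's diffSplice called 1 bin in CGG_siTRA vs siTRA (0.0808% of all bins) and 1 in CGG_siTRA vs CGG (0.0977%). A minimum count of 50 gave 13 interaction bins (0.122% of the bins then tested). The authors' deposited DEXSeq tables called 93, 63, 67 and 54 bins in CGG vs CTL, GFP_TRA vs CTL, siTRA vs CTL and CGG_siTRA vs CGG. DESeq2 called 32 genes in CGG_siTRA vs siTRA. The cause of these shifts was not tested.

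Leaving out each library in turn gave 3 to 4 bins in CGG vs CTL, 3 to 15 in GFP_TRA vs CTL, 0 to 2 in CGG_siTRA vs siTRA, 13 to 28 in siTRA vs CTL, 0 to 8 in CGG_siTRA vs CGG and 2 to 13 in the interaction. It gave 154 to 185 genes in CGG vs CTL, 159 to 189 in GFP_TRA vs CTL and 0 to 33 in CGG_siTRA vs siTRA, where the 33 came without CGG_siTRA library a. It gave 0 to 1 ratio calls in CGG vs CTL, 0 to 0 in GFP_TRA vs CTL, 0 to 1 in CGG_siTRA vs siTRA, 2 to 8 in siTRA vs CTL, 0 to 1 in CGG_siTRA vs CGG and 0 to 1 in the interaction. The bin change of the segment at chr19:40233951-40235101 in CGG vs CTL, which was not called, was -0.04, ranged from -0.09 to 0.03 over the fits that left out a library, and turned to 0.03 without CGG library c.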
